A study of Homo sapiens with 8 samples.

Results

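The ubiquitin-specific proteases (USP) are the largest family of human deubiquitinases, and their transcripts were measured here after knockdown (KD) of PTBP1 in leukemia cells. The members were the protein-coding genes of GENCODE 44 whose symbol is USP followed by a number, with or without an X, which gave 50 genes of the 62639 genes in the table. Counts were found for 46 of the 50, and 32 of them had a count in all 8 libraries. USP6, USP26, USP29 and USP50 had no count in any library.

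MOLM-13, a human acute myeloid leukemia line, carried a lentiviral construct with constitutive mCherry and, under a doxycycline (dox) inducible promoter, a shRNA together with the truncated receptor ΔLNGFR. The shPTBP1 group held 1 shRNA against PTBP1 (genotype label PTBP1 KD) and the shSCR group 1 scrambled shRNA (labelled shControl, genotype WT), and both groups of 4 libraries had received dox for 9 days. Effects of the particular shRNA and of the transduced population therefore cannot be told apart from those of losing PTBP1. The labels call the replicates biological, and p-values measure only the spread between these libraries.

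Ubiquitin is attached to proteins as a single unit or as a chain, and USP enzymes are cysteine proteases that cleave it off again. Some remove ubiquitin from histones, some recycle ubiquitin chains at the proteasome, and others act on receptors at endosomes, on p53 and its ligase MDM2, or on spliceosomal proteins. USP16 removes ubiquitin from histone H2A and is needed for hematopoietic stem cells to differentiate. PTBP1 binds pyrimidine-rich RNA and often represses the splice site or exon beside it.

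Each library held between 1528449 and 1613342 nanopore cDNA counts, of which the USP genes took 1722 to 2070. The targeted gene went with its labels, since PTBP1 measured 6.33, 9.91, 8.56 and 14.7 normalized CPM (counts per 1000000 after TMM scaling) in the shPTBP1 libraries and 39.9, 57.3, 42.7 and 50.0 in the shSCR libraries. Its log2 fold change was -2.26 (standard error, SE, 0.22; adjusted p = 7.18e-05 in edgeR). All 16 myeloid leukemia markers examined had counts, and their summed level was 8330 to 9434 CPM after shPTBP1 and 7438 to 8125 CPM after shSCR, groups that do not overlap. Most of that sum came from PRTN3 (means 3569 and 2616 normalized CPM) and AZU1 (3688 and 3658, log2 fold change 0.01), so its difference mainly follows PRTN3. The 11 markers tested had a median log2 fold change of 0.1, with 1 called higher and 1 lower, where 5.54% of all genes tested were called. PRTN3, a granule protease, was higher after shPTBP1 (log2 fold change 0.45, SE 0.08, adjusted p = 0.00753 in edgeR), and CSF1R, the receptor of a macrophage growth factor, was lower (-0.97, SE 0.25, adjusted p = 0.0375). The groups did not overlap for CD33 (0.26) and ELANE (0.11) either, which were not called. In all, 4 of the 11 markers had groups without overlap, and 12.7% of all genes tested. LYZ (0.33) and ITGAM (-0.85) were not called, and their groups overlap. In RNA from a whole culture, a change in the number of cells of a kind cannot be told apart from a change in RNA per cell. The part of these marker differences in the values of the USP genes was not tested. Of 19 markers of other cell types only 9 had any count, the T-cell genes CD3D and CD3E and the red-cell gene HBB were at 0 in every library, and the list summed to 33.6 to 42.3 CPM after shPTBP1 and 38.5 to 47.1 CPM after shSCR, mostly from PECAM1.

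Splicing of USP16 and USP5 gave the clearest differences between the groups, so the RNA around these sites is shown from the GRCh38 sequence. USP16 lies on chromosome 21 (chr21:29024629-29054488, plus strand). In the transcript USP16-201, the leader before the start codon holds an additional exon of 63 bp at chr21:29025709-29025771 that the 2 other abundant transcripts, USP16-203 and USP16-204, skip. The last 100 bases of the intron ahead of that exon are printed with TCTT, a short pyrimidine motif known to be bound by PTBP1, in capitals (chr21:29025609-29025708).

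USP16 intron before the 63 bp exon: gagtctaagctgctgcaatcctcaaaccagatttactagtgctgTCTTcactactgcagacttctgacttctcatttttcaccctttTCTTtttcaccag

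This window held 66 pyrimidines, and 7.7% of 73056 internal exons had a window with as many or more (median 55). It held TCTT 2 times, a number reached by 30.6% of the exons, and no CTCTCT, a sequence that 7.59% of these windows contain. The 100 intron bases after the exon held 56 pyrimidines, as many or more in 27.0% of exons, and TCTT 1 time (49.5%). Motifs were searched on the sense strand only, and a match describes the letters and not a bound site.

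USP5 lies on chromosome 12 (chr12:6852148-6866632, plus strand), and its transcripts differ in where 1 coding exon ends. In USP5-202 the exon ran from 6863186 to 6863308 (123 bases), and in USP5-201 it continued to 6863377 (192 bases). The exon is printed with the 69 added bases in capitals, followed by 10 bases of the intron (chr12:6863186-6863387). The intron after the longer form follows, with TCTT and CTCTCT in capitals (chr12:6863378-6863477).

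USP5 exon with alternative end: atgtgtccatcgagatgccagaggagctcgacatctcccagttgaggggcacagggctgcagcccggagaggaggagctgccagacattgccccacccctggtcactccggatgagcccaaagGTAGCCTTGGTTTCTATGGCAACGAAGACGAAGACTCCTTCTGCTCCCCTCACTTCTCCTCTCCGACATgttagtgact
USP5 intron after the long form: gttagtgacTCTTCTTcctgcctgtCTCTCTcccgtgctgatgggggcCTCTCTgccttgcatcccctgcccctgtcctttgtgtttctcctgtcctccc

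Both exon ends are followed by GT, the first bases of a usual intron. The 69 added bases are 23 whole codons, so the coding length was 2574 bases in USP5-201 and 2505 in USP5-202, with the same start and stop codon. The 100 intron bases after the long form held 76 pyrimidines, a number that 0.223% of the 73056 exons reached in the same window (median 51). CTCTCT occurred 2 times, a number that 0.589% of the windows reached, and 3.96% held it at all. In the 100 intron bases before the exon, 49 were pyrimidines, and 84.3% of the exons had as many or more. Neither TCTT nor CTCTCT occurred there.

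**Figure D1:**
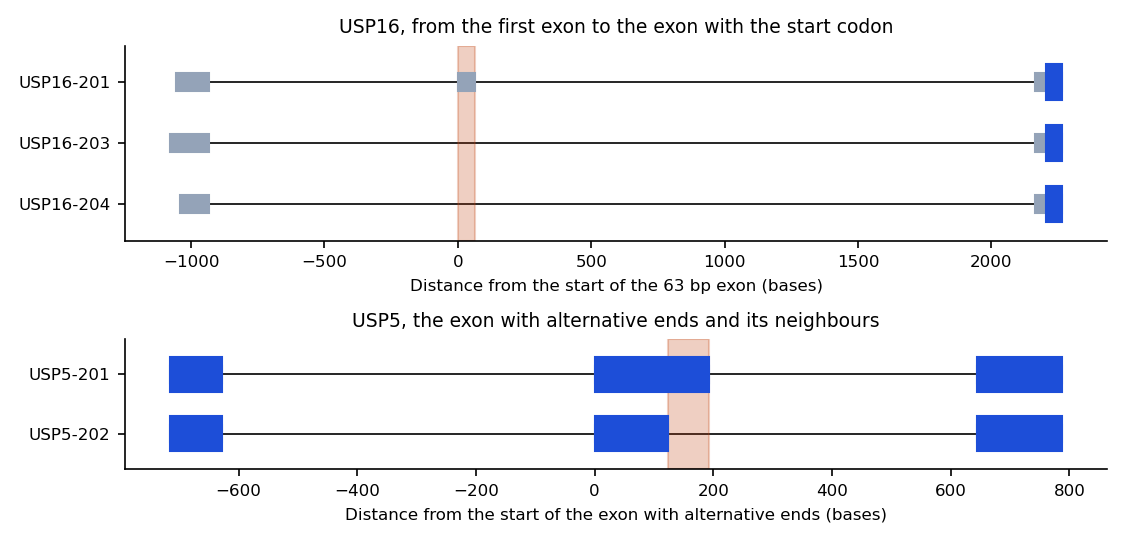
Exons (grey boxes, with coding parts in blue) of USP16 and USP5 transcripts, drawn to scale against the distance in bases from the start of the alternative exon. The orange bands mark the 63 bp exon, which lies 931 bases after the preceding exon and 2101 before the exon with the start codon, and the 69 bases added to USP5-201.

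The 63 bp exon of USP16 was counted in shPTBP1 libraries only. Among counts of transcripts that span the site, the exon was present in 41 of 83, 33 of 67, 26 of 69 and 32 of 85 counts in shPTBP1 replicates 1 to 4, and in 0 of 41, 0 of 64, 0 of 53 and 0 of 49 counts in the shSCR replicates. The mean share was 43.5% ± 6.73 (SD, n = 4; 37.6% to 49.4%) after shPTBP1. In shSCR, 0 of 207 counts pooled over the libraries allow a share of up to 1.45% (3 counts over the total), against 132 of 304 pooled counts after shPTBP1. For single shSCR libraries that limit was 4.69% to 7.32%. The groups did not overlap, and the smallest share after shPTBP1 had a 95% Wilson interval of 28.1% to 48.3%, above the upper bound of 8.57% in the shSCR library with the fewest counts. These intervals cover counting error only. USP16 was chosen with this switch known, so the shares are a description.

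Among all 5464 isoforms tested with diffSpliceDGE, 61 were called (1.12%), with an adjusted p under 0.05 and a change in share of at least 10 percentage points. USP16-201 was among them, with 43.3% of USP16 counts after shPTBP1 and 0 after shSCR (adjusted p = 4.81e-10, rank 6 of all isoforms by p), and it passed the filter on low counts only through the shPTBP1 group, so that its test is not independent of the filter. USP16-203 held 37.9% ± 3.85 after shPTBP1 and 68.1% ± 6.74 after shSCR (SD, n = 4 each; adjusted p = 0.0333). Its counts were 29, 25, 25 and 37 after shPTBP1 and 32, 41, 35 and 32 after shSCR, which overlap, and its share has the counts of USP16-201 in the denominator, so the calls of these isoforms are not independent. That call was lost when any library was left out (adjusted p = 0.0501 to 0.151), while the change in share stayed between -32.1 and -26.9 percentage points. USP16-204 had 28.2% ± 5.83 and 17.2% ± 6.18, and these groups overlap (adjusted p = 0.429).

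The exon lengthened the leader, and the coding sequence of USP16-201 (2469 bases) starts at the same codon as that of USP16-203, in the next exon. With their different first-exon starts, the leaders measured 231 bases in USP16-201 and 190 in USP16-203, and they held 5 ATG triplets (2 of them in the exon) and 4. The GC content of the exon was 38.1%. An effect of the exon on translation was not measured.

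**Figure D2:**
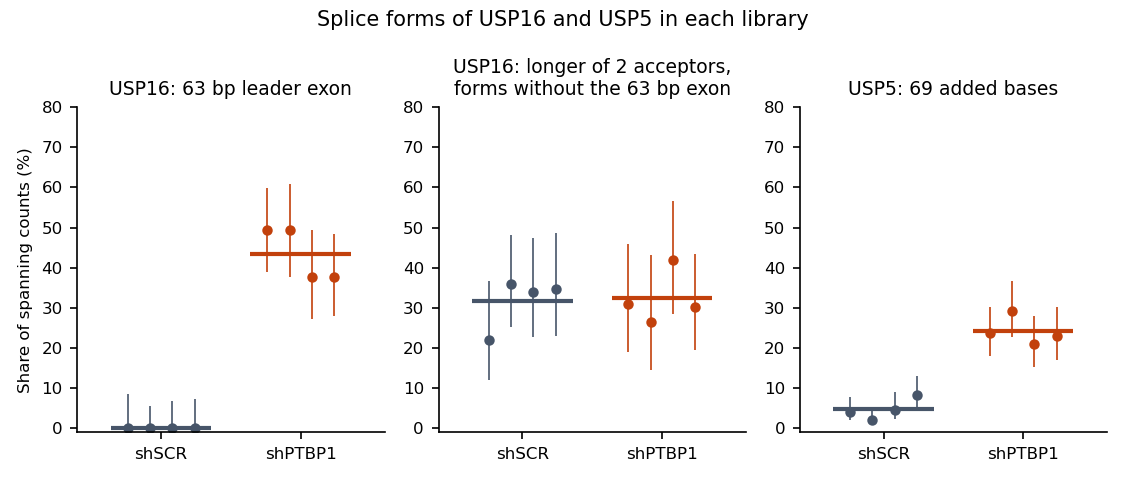
Share of spanning counts (%) that carry the 63 bp exon of USP16, the longer of a pair of USP16 acceptors (forms without that exon), and the 69 added bases of USP5; each point is a library, its bar the 95% Wilson interval, and each horizontal line the mean of 4 libraries. The shPTBP1 libraries lie above all shSCR libraries for the exon (means 43.5% and 0) and the added bases (24.2% and 4.78%), and the groups overlap for the acceptor (32.4% and 31.6%).

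USP16 transcripts also differ in the annotation by 3 coding bases at an acceptor with neighbouring AG sites. The longer exon starts at 29037276 and the shorter at 29037279, and the bases between them are printed in capitals (chr21:29037264-29037287).

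USP16 acceptor: ctttttttaaagCAGagaaagata

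USP16-201 has the longer exon, as do USP16-204 and USP16-205, while USP16-203 has the shorter. Among the forms without the 63 bp exon, a restriction chosen after seeing the data, the longer acceptor took 31.0%, 26.5%, 41.9% and 30.2% of counts in the shPTBP1 libraries and 22.0%, 35.9%, 34.0% and 34.7% in the shSCR libraries. The means were 32.4% ± 6.62 and 31.6% ± 6.51 (SD, n = 4), and the groups overlap (exact permutation test, two-sided, p = 0.886). With USP16-201 counted as well the difference in means was 30.4 percentage points, so a difference at this acceptor appeared only when the exon form was included.

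At the gene level, USP16 measured 52.5, 44.9, 45.4 and 54.4 normalized CPM in the shPTBP1 libraries and 25.2, 41.4, 35.3 and 31.4 in the shSCR libraries, so the groups did not overlap. The means were 49.3 ± 4.85 and 33.3 ± 6.80 (SD, n = 4), a log2 fold change of 0.57 (SE 0.15, adjusted p = 0.0441 in edgeR). Forms with the 63 bp exon contributed 21.3 ± 3.65 normalized CPM after shPTBP1. Forms without it measured 27.8 ± 4.76 after shPTBP1 and 33.2 ± 6.55 after shSCR, and these groups overlap (exact permutation test, two-sided, p = 0.229; the smallest p of 4 against 4 is 0.0286). With USP16-201 left out, the log2 fold change of the gene was -0.25 (adjusted p = 0.493). The call of the gene was lost with DESeq2 (adjusted p = 0.0899), with limma on log2(CPM + 1) (0.0675), with the replicate number as a block (0.0894), and when shSCR replicate 1, 3 or 4 or any shPTBP1 replicate was left out (0.0744 to 0.125), but not without shSCR replicate 2 (0.0243). Without shSCR replicates 1 and 2 together the adjusted p was 0.0997.

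Long USP5 RNA was more frequent in the knockdown. USP5, also called isopeptidase T, takes apart free ubiquitin chains. The long form made up 44 of 186, 46 of 157, 33 of 158 and 35 of 152 counts in the shPTBP1 libraries and 8 of 194, 4 of 188, 8 of 171 and 15 of 183 in the shSCR libraries. The mean share was 24.2% ± 3.59 (20.9% to 29.3%) and 4.78% ± 2.53 (2.13% to 8.20%; SD, n = 4 each), without overlap (two-sided exact permutation test, p = 0.0286). That is the smallest p of 4 against 4. USP5 was singled out by an isoform call in these same data, so this p is no support. USP5-201 was called among all isoforms (adjusted p = 4.34e-07, rank 12) and remained so with each library left out in turn, with a change of 17.7 to 20.6 percentage points. Most of its shSCR counts were under the filter's minimum of 10, so it passed the filter on low counts only through the shPTBP1 group. Its test is therefore not independent of the filter.

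Both forms of USP5 differed in level, in opposite directions. The long form measured 25.6 ± 4.21 normalized CPM after shPTBP1 and 5.61 ± 2.95 after shSCR, and the short form 80.1 ± 7.58 and 112 ± 4.49 (SD, n = 4). Neither pair of groups overlapped (exact permutation test, p = 0.0286 for each). For forms chosen through the isoform call these p-values are no support either. The gene as a whole did not pass the test: its levels were 118, 104, 104 and 97.3 after shPTBP1 and 119, 120, 114 and 117 after shSCR, with a log2 fold change of -0.15 (SE 0.08, adjusted p = 0.328 in edgeR). The share of the short transcript USP5-202 changed by -18.8 percentage points. That change was not called by diffSpliceDGE (adjusted p = 0.303) and was called by limma's diffSplice (adjusted p = 1.06e-05).

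**Figure D3:**
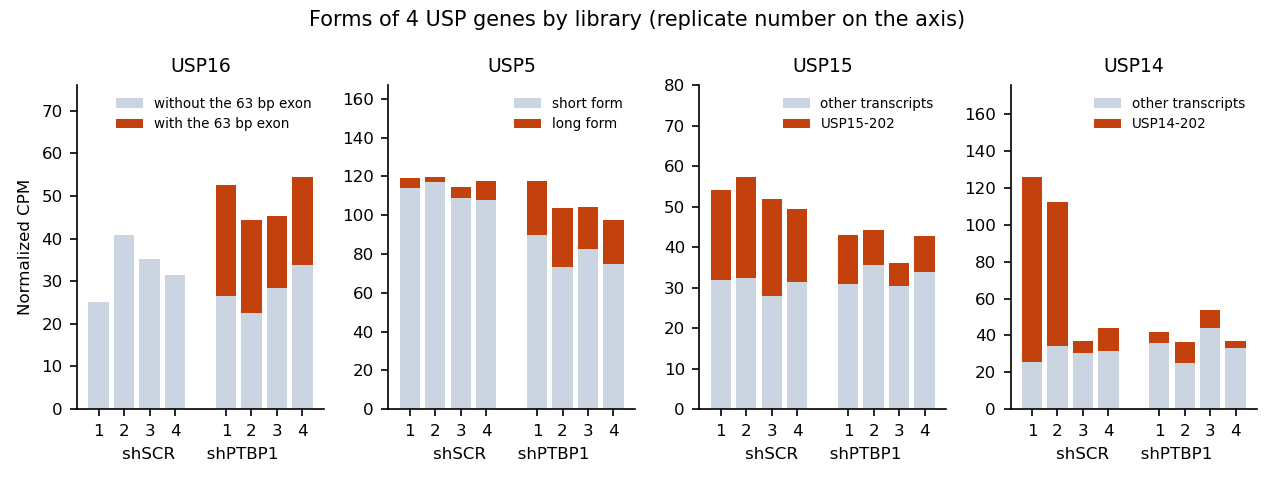
Normalized CPM of the forms of USP16, USP5, USP15 and USP14 in each library, stacked so that the bar is the sum of the forms. The orange form is seen after shPTBP1 only in USP16, is larger after shPTBP1 in USP5 and smaller in USP15, and in USP14 it is high in shSCR replicates 1 and 2 alone.

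Of the 50 genes, 32 had enough counts for the gene test. USP16 alone was called, which is 3.12% of the 32, where 5.54% of the 7597 genes tested were called (2.36% higher and 3.19% lower after shPTBP1). An unadjusted p under 0.05 was found for USP16, USP15, USP14 and USP19, 12.5% of the family and 19.2% of all genes. The groups did not overlap for USP16, USP15 and USP19, 9.38% of the family and 12.7% of all genes. Among the 32 genes the log2 fold changes had a median of 0.00, with 17 above 0 and 15 below, and 27 lay within 0.5 of 0. The median SE was 0.2 on the log2 scale. In simulated counts of this depth, drawn with the same spread for every gene, 83.0% of genes with a log2 change of 1 were called. The changed genes came from all genes passing the filter, and 9 of the 32 USP genes had an SE above 0.3. The 83.0% is therefore not a rate for this family, and smaller changes were not simulated.

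**Figure D4:**
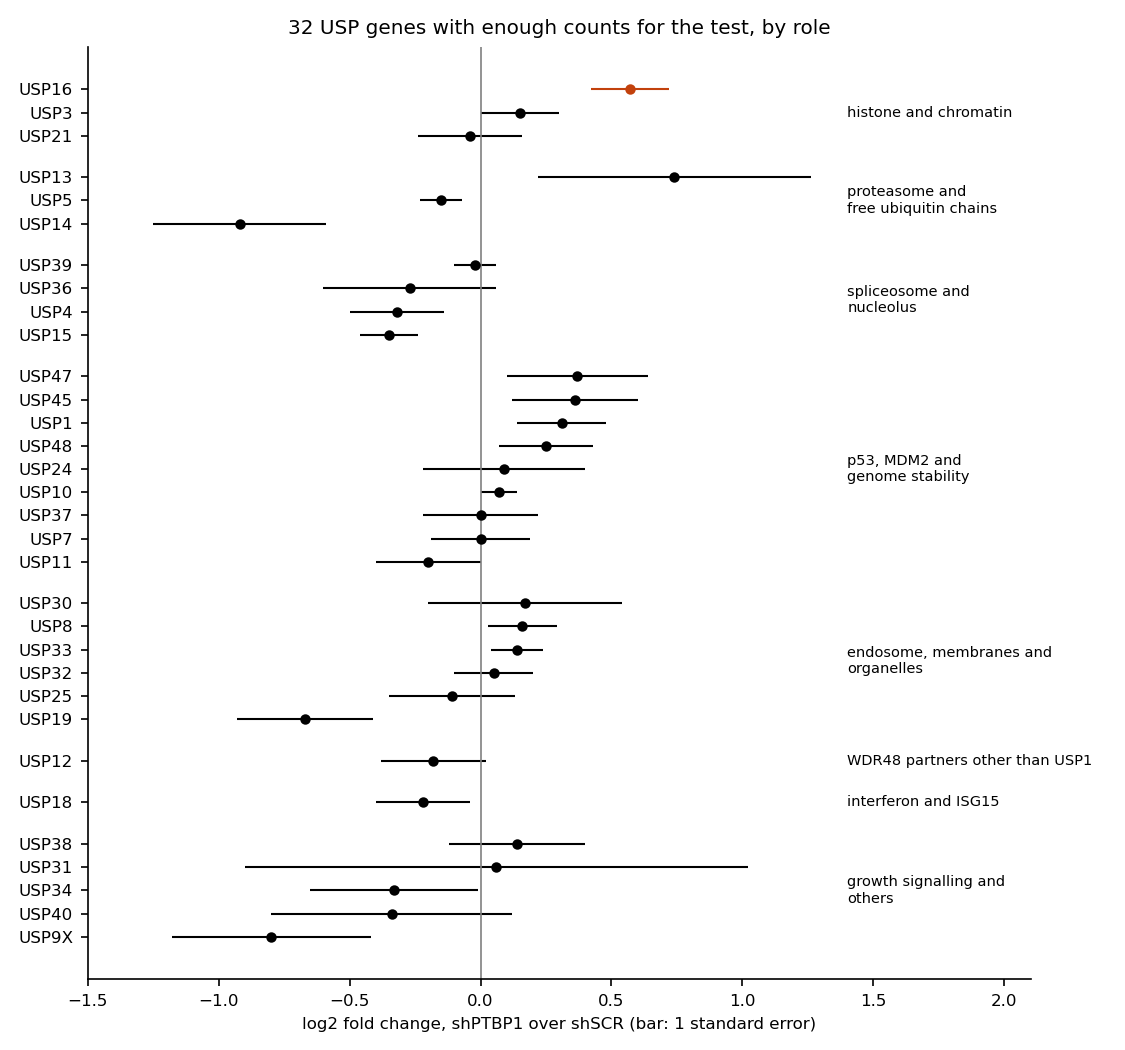
log2 fold change of the 32 USP genes that were tested, shPTBP1 over shSCR, by role, with bars of 1 standard error. USP16 (orange, 0.57) was the only gene called, and most of the others lie within 0.5 of 0.

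The histone and chromatin enzymes had 9 members, of which 3 were tested. Besides USP16 these were USP3 and USP21, which also remove ubiquitin from histones H2A or H2B. USP3 measured 32.3, 31.1, 28.3 and 29.5 normalized CPM after shPTBP1 and 32.6, 29.3, 23.3 and 23.7 after shSCR, and the groups overlap (log2 fold change 0.15, SE 0.15, adjusted p = 0.66 in edgeR). Its transcript USP3-206, annotated as a target of nonsense-mediated decay, held 53.5% ± 5.30 and 51.4% ± 6.60 of the counts. For USP21 the log2 fold change was -0.04 (SE 0.20, adjusted p = 0.949). USP22, the deubiquitinase of the SAGA coactivator complex, had 16 counts over the 8 libraries and was not tested, like USP27X, USP42, USP44, USP49 and USP51.

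USP5, USP13 and USP14 act on free ubiquitin chains or at the proteasome, where USP14 trims chains from proteins held by the regulatory particle. USP14 measured 41.8, 36.3, 54.0 and 37.1 normalized CPM after shPTBP1 and 126, 112, 36.7 and 44.3 after shSCR. Its mean was lower after shPTBP1 (42.3 ± 8.14 against 79.7 ± 45.8), but the groups overlap and the log2 fold change of -0.92 (SE 0.33) did not pass the edgeR test (adjusted p = 0.14). Only shSCR replicates 1 and 2 were high. USP14-202, singled out after its values were seen, had 9, 17, 15 and 6 counts after shPTBP1 and 163, 122, 9 and 20 after shSCR. The other USP14 transcripts together had 57, 38, 67 and 52 counts against 42, 54, 46 and 49, which overlap.

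Without USP14-202 the log2 fold change of USP14 was 0.18 (adjusted p = 0.63), and without shSCR replicates 1 and 2 it was 0.06 (adjusted p = 0.924). The gene was called lower without shSCR replicate 3 (-1.16, adjusted p = 0.0438) and with no filter on low counts (-0.91, adjusted p = 0.01). USP14-202 has 14 exons against 16 in USP14-201 and ends earlier. THOC1 overlaps USP14 on the opposite strand and had 117 to 164 counts per library. Whether the counting used strand is not given in the sources used here. USP13 measured 8.58 ± 1.26 and 5.06 ± 3.91 normalized CPM (log2 fold change 0.74, SE 0.52, adjusted p = 0.486) and had a count of 0 in shSCR replicate 4.

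The spliceosome and nucleolus group held USP39, USP4, USP15 and USP36, and all 4 had a log2 fold change below 0 with none called. USP39, which lacks protease activity and is a part of the spliceosome, ranged from 194 to 231 normalized CPM after shPTBP1 and from 200 to 229 after shSCR (log2 fold change -0.02, SE 0.08, adjusted p = 0.931 in edgeR). C2orf68 overlaps it on the opposite strand with 73 to 124 counts per library. USP4, which acts on the splicing factor PRPF3, measured 30.4, 17.2, 26.3 and 26.3 after shPTBP1 and 33.2, 36.3, 27.3 and 28.2 after shSCR (-0.32, SE 0.18, adjusted p = 0.376), with groups that overlap in range. USP36, a nucleolar enzyme, had a log2 fold change of -0.27 (SE 0.33, adjusted p = 0.727).

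USP15, a paralog of USP4, measured 43.0, 44.3, 36.2 and 42.9 normalized CPM after shPTBP1 and 54.1, 57.3, 52.0 and 49.4 after shSCR. The groups did not overlap, and the log2 fold change of -0.35 (SE 0.11) missed the threshold (edgeR adjusted p = 0.0873). The short transcript USP15-202, singled out after its values were seen, with 7 exons, its own last exon and a coding length of 705 bases against 2943 in USP15-201, had 19, 13, 9 and 14 counts after shPTBP1 and 36, 39, 36 and 28 after shSCR. Its level was 8.87 ± 2.50 and 22.2 ± 3.06 normalized CPM (SD, n = 4), without overlap. The exact permutation test gave p = 0.0286, the smallest that 4 against 4 allows. For a transcript chosen by its values that p is no support. All other USP15 transcripts together measured 32.7 ± 2.52 and 31.0 ± 2.02 and overlapped (p = 0.343 in the exact permutation test). The share of USP15-202 was 21.2% ± 4.90 after shPTBP1 and 41.7% ± 4.15 after shSCR, a change that was not called by diffSpliceDGE (adjusted p = 0.123) and was called by limma's diffSplice (adjusted p = 0.00357).

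The 10 members that act on p53, MDM2 or genome stability included 9 with enough counts, of which 8 had a log2 fold change above 0, 1 below 0, and none was called (median 0.09). The 8 include USP7 and USP37, which were both 0.00 after rounding. USP10, which stabilizes p53 in the cytoplasm, ranged from 165 to 181 normalized CPM after shPTBP1 and from 155 to 179 after shSCR (0.07, SE 0.07, adjusted p = 0.66 in edgeR). USP1, which acts on FANCD2 and PCNA, measured 43.7, 31.7, 26.3 and 32.7 after shPTBP1 and 23.4, 26.7, 29.3 and 29.5 after shSCR (0.31, SE 0.17, adjusted p = 0.361), and the groups overlap. USP7, the protease of MDM2 and p53, measured 31.0, 27.1, 27.0 and 32.7 against 35.0, 18.5, 33.3 and 30.8 (0.00, SE 0.19, adjusted p = 0.998). Most USP7 counts were on USP7-208, annotated as a target of nonsense-mediated decay, with shares of 70.6% ± 5.09 and 65.5% ± 4.48. USP47 (0.37, SE 0.27) and USP45 (0.36, SE 0.24) had the highest values of this group, with adjusted p = 0.502 and 0.451.

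Among the 8 enzymes of endosomes, membranes and organelles, 6 were tested, 4 of them above 0, and none was called. USP19, which is anchored in the endoplasmic reticulum in some of its forms, measured 5.06, 7.93, 6.58 and 7.68 normalized CPM after shPTBP1 and 10.4, 9.55, 10.7 and 12.8 after shSCR. These groups did not overlap, and its log2 fold change of -0.67 (SE 0.26) was not called (edgeR adjusted p = 0.18). USP8, which frees receptors of ubiquitin at endosomes, measured 39.9, 33.0, 35.5 and 32.0 against 30.1, 29.9, 32.7 and 33.4 (0.16, SE 0.13, adjusted p = 0.583), with overlap. USP33 measured 81.6, 64.7, 70.4 and 65.9 against 62.1, 64.9, 69.4 and 60.3 (0.14, SE 0.10, adjusted p = 0.511), with overlap. USP32 measured 28.5, 33.7, 38.8 and 35.9 against 35.0, 26.1, 35.3 and 35.9 (0.05, SE 0.15, adjusted p = 0.911), again with overlap. USP20, which is closely related to USP33, was below the filter with 4, 8, 6 and 3 counts after shPTBP1 and 15, 10, 14 and 8 after shSCR, and has no test.

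USP18, the protease that removes the interferon-induced modifier ISG15, measured 32.9, 44.3, 31.6 and 32.7 normalized CPM after shPTBP1 and 49.2, 45.2, 41.3 and 28.2 after shSCR (log2 fold change -0.22, SE 0.18, adjusted p = 0.558 in edgeR), and the groups overlap. Without shSCR replicates 1 and 2 the log2 fold change of USP18 was 0.03. USP12, which like USP1 is activated by WDR48, had -0.18 (SE 0.20, adjusted p = 0.695). Its relative USP46 had 2 to 9 counts after shPTBP1 and 3 to 14 after shSCR and was not tested.

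The last group, growth signalling and others, had 13 members and 5 tested, with a median log2 fold change of -0.33 and none called. USP9X, an X-linked enzyme of growth signalling, had 4, 5, 9 and 13 counts after shPTBP1 and 17, 13, 15 and 10 after shSCR. The groups overlap, and the log2 fold change was -0.80 (SE 0.38, adjusted p = 0.268 in edgeR). USP31 had 3, 25, 0 and 29 counts after shPTBP1 and 37, 19, 0 and 0 after shSCR, so each group held replicates at or near 0 beside others with 19 counts or more. The values of USP34, USP38 and USP40 were -0.33, 0.14 and -0.34.

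A count of 0 beside a replicate with at least 10 counts was found within a group for USP13 and USP31, 2 of 35 members with such a count, and for 356 of 8916 genes overall (3.99%). At the transcript level it was found for 6 of 57 members' transcripts, USP14-205 and USP31-201 among them, and for 952 of 13467 transcripts (7.07%). USP16-201 was at 0 in all 4 shSCR libraries, and 26 counts was its lowest value after shPTBP1. The part of the transcript assignment by StringTie in these zeros was not tested.

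Per length of transcript, USP39 was the most abundant member, with 96.1 ± 7.30 CPM per kb after shPTBP1 and 100 ± 7.03 after shSCR (SD, n = 4). USP10 followed with 51.9 ± 2.49 and 50.1 ± 3.38, and USP5 with 33.4 ± 3.32 and 38.3 ± 1.53. USP15 had 28.9 ± 4.53 and 36.7 ± 5.08, close to USP5 after shSCR. This order depends on the division by annotated length, which short transcripts such as USP15-215 (584 bases) raise. Without it, the shSCR means were 118 normalized CPM for USP5, 64.2 for USP33 (17.9 CPM per kb) and 53.2 for USP15. Whether the division suits these long-read counts was not tested. USP16 had 16.1 ± 1.76 and 11.2 ± 2.43 CPM per kb, and its neighbours in the order of shSCR levels, USP48 and USP4, lay within its SD. Together the USP genes took 1122 to 1208 CPM after shPTBP1 and 1127 to 1304 CPM after shSCR, and without USP14-202 the ranges were 1111 to 1203 and 1121 to 1224.

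**Figure D5:**
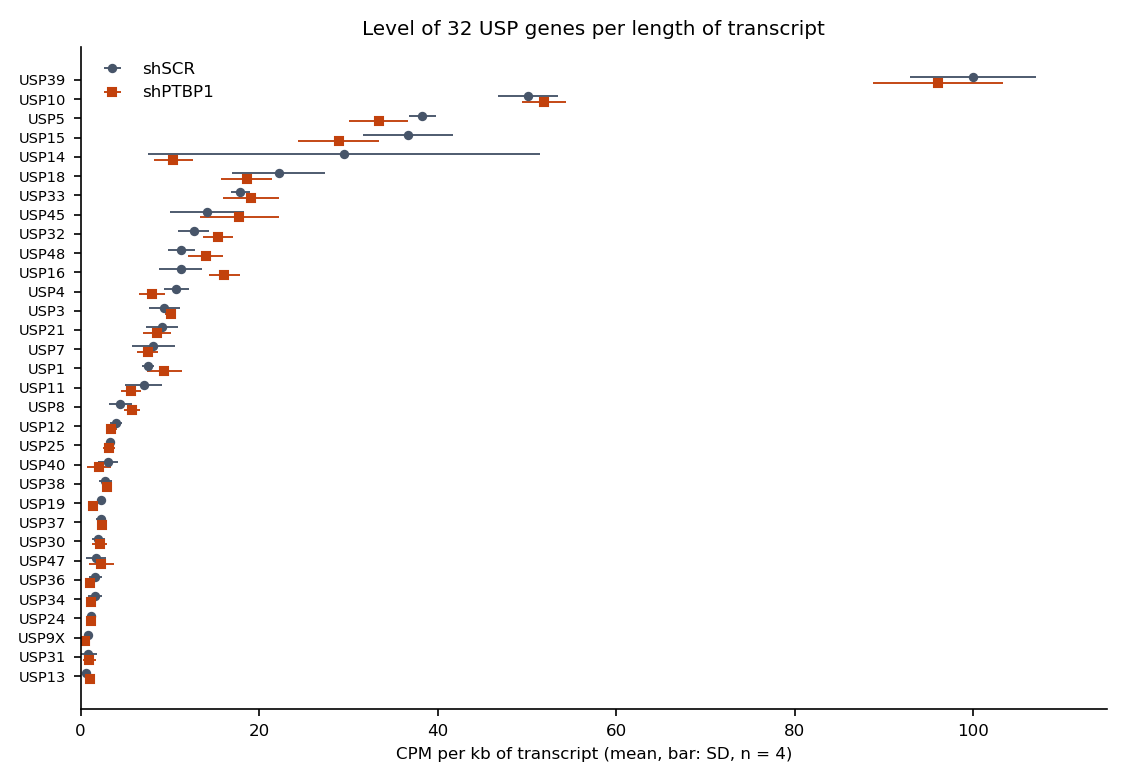
CPM per kb of transcript for the 32 USP genes tested (mean and SD of 4 libraries; circles shSCR, squares shPTBP1), ordered by the shSCR mean. USP39 and USP10 stand above the other members in both groups, and the wide bar of USP14 after shSCR reflects replicates 1 and 2.

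Isoform usage could be tested for 30 isoforms of 12 members, and 3 isoforms of 2 members were called (where 1.12% of all isoforms were called). These were USP16-201 and USP5-201, with a higher share after shPTBP1, and USP16-203, with a lower share of a total that includes USP16-201. USP16 was examined first because its exon switch was already known in these libraries, so its calls are a description. Without USP16, 1 of 27 isoforms was called (3.70%). That isoform, USP5-201, passed the filter only through the shPTBP1 group. The shares did not overlap for 5 of the 30 isoforms (16.7%, and 10.7% of all), the other two being USP5-202 and USP15-202, and shares within a gene depend on each other. In the remaining 10 members no isoform was called. USP39-201 held 73.6% ± 4.04 and 74.7% ± 2.03 of USP39 counts, USP33-204 65.7% ± 1.35 and 65.1% ± 5.11 of USP33 counts, and USP8-201 49.2% ± 5.75 and 51.2% ± 9.13 of USP8 counts. Summed over the family, transcripts with a coding annotation held 90.7% ± 0.246 of USP counts after shPTBP1 and 91.2% ± 1.20 after shSCR, and those annotated for nonsense-mediated decay held 4.61% ± 0.315 and 4.12% ± 0.580, with overlap in both.

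Genes that work beside the USP enzymes were read from lists written from general knowledge. A list of 43 deubiquitinases and related proteins without a USP symbol had 25 genes tested and none called (median log2 fold change -0.06). CYLD (-0.56), BAP1 (-0.31), MINDY1 (-0.65) and ALG13 (0.49) had an unadjusted p under 0.05 in edgeR. CYLD trims linear and K63-linked chains and BAP1 acts on histone H2A, as USP16 does. None of 15 tested partners and adaptors was called (19 listed, median -0.03). STAM2, an endosomal partner of USP8, had a log2 fold change of -0.75 (SE 0.43, adjusted p = 0.376 in edgeR). G3BP2, a relative of the USP10 partner G3BP1, had -0.13 (SE 0.10, adjusted p = 0.561). Groups did not overlap for these 2 of the 15 partners, and for 12.7% of all genes tested. The separation of STAM2 was narrow, with 7.93 normalized CPM as its highest shPTBP1 value and 7.99 as its lowest shSCR value. Its shPTBP1 replicate 4 was at 0.64. None of the 8 ubiquitin precursors and activating enzymes was called (median -0.07). Among them UBA7, which activates ISG15, had groups that did not overlap, 50.6 to 60.1 normalized CPM after shPTBP1 and 65.1 to 72.6 after shSCR (-0.32, SE 0.10, adjusted p = 0.0902 in edgeR). Of 22 genes that attach ubiquitin to histones H2A and H2B or take part in that step, 17 were tested and none was called (median -0.04), and UBE2A, which ubiquitinates H2B together with RNF20 and RNF40, had the smallest p (0.31, SE 0.11, adjusted p = 0.124). With edgeR, 0 of the 65 tested genes of these 4 lists were called where 5.54% of all genes were, 7 had an unadjusted p under 0.05, and DESeq2 called 0 and gave no adjusted p for 17.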

How the data were processed

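Total RNA was extracted from the 8 MOLM-13 cultures and sequenced by the authors as nanopore cDNA. After minimap2 mapping to hg38 and a filter on mapping quality, the authors deposited a whole-number StringTie count per transcript. The StringTie annotation and the versions of these tools are not given in the sources used here. The authors also deposited CPM values, in a table named TPM, that equal each count divided by its library total; these served only the alternative on log2(CPM + 1). DESeq2, which the authors used for genes, was run here as an alternative.

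Transcripts were joined to GENCODE 44 by Ensembl identifier (252562 of 254070 matched) and counts were summed per gene. Groups came from the sample titles. The gene test was edgeR 4.0.16 by quasi-likelihood (TMM, filterByExpr with a minimum count of 10, 7597 genes), and isoforms were tested by its diffSpliceDGE on transcripts passing the same filter. Benjamini-Hochberg adjustment ran over all genes or isoforms tested, with a threshold of 0.05. For single values, exact permutation tests over the 8 libraries were used. Event shares were summed over transcripts whose GENCODE exons hold or span the site, so they rest on the assignment of reads to transcripts. Named in full were USP16, members called as a gene or isoform, members with an unadjusted p under 0.05, and then members by mean count up to 15, and from the lists the called genes and up to 4 of the smallest p whose groups did not overlap. The members and lists were chosen with earlier results of these data known. Squared differences between libraries of 1 group were 2.12 to 3.96 times counting error, so none is a copy of another. Simulated counts for the gene comparison (7619 genes tested) were made from these libraries with the same spread for every gene. Of 100 genes changed by 1 on the log2 scale 83.0% were called, and of 100 changed by 2 92.0%, with 13 unchanged genes. For isoforms (5442 tested), 100 swapped pairs were picked from genes whose 2 main isoforms had clearly unequal levels. All of these pairs were called and 0 unchanged ones.

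Alternatives were DESeq2 1.42.0, its size factors in edgeR, no filter, a mean of at least 20 counts, limma 3.58.1 on log2(CPM + 1), the replicate number as a block, and each library left out. For isoforms they were limma's diffSplice, no filter, a mean of at least 10 counts, size factors, the block, other limits on the change of share (5 and 20 points), and each library left out. Leaving out USP14-202, USP16-201, or shSCR replicates 1 and 2 together was chosen after seeing the data. R 4.3.3 ran the fits, and Python 3.11.15 the rest (pandas 2.3.3 and numpy 2.4.6 for tables, scipy 1.17.1 for exact tests, figures in matplotlib 3.10.9).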

Additional observations from a re-analysis of the deposited data

Results flagged for a closer look

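Of 36 sets of 4 libraries examined (15 genes and 3 splice events in each group), 4 held a library far from the other 3, where chance gives about 1 in 20. USP15 was 36.2 normalized CPM in shPTBP1 replicate 3 and 42.9 to 44.3 in the others. USP18 was 44.3 normalized CPM in shPTBP1 replicate 2 and 31.6 to 32.9 in the others. USP32 was 26.1 normalized CPM in shSCR replicate 2 and 35.0 to 35.9 in the others. The share of the longer USP16 acceptor was 22.0% in shSCR replicate 1 and 34.0% to 35.9% in the others. The 4 cases came from 4 different libraries.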

How the results depend on the processing

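The share change of the 63 bp exon of USP16 stayed at 41.5 to 45.4 percentage points with each library left out and was 53.2 among the 2 most abundant transcripts. USP5-201 was called in every alternative except at a limit of 20 points, which its 19.4 points did not reach. USP16-201 was called in each as well, but with 0 counts in all shSCR libraries it passed the filter through the shPTBP1 group alone, and its switch was known beforehand, so these calls are no independent support. USP5-201 also passed the default filter through the shPTBP1 group alone, so its calls under that filter are not independent of it. The count of USP isoforms called was 6 with limma's diffSplice and 2 in each fit without 1 library. Over all isoforms it was 154 with limma's diffSplice, 28 at 20 points and 39 to 55 with 1 library left out. The call of USP16-203 was also lost with no filter, at a mean of 10 counts, and without shSCR replicates 1 and 2 (adjusted p = 0.335, 0.0647 and 0.319 in edgeR). The USP16 gene call was lost in several fits: 0 USP genes were higher with DESeq2, limma-trend, the replicate block, and shSCR replicates 1 and 2 left out, and 0 to 1 without single libraries. For genes lower, 1 USP gene (USP14) was called with no filter and 0 to 1 without single libraries. Over all genes, 77 to 168 were higher and 107 to 190 lower with 1 library left out, 65 and 91 without shSCR replicates 1 and 2, and 157 lower with DESeq2, against 179 and 242. DESeq2 gave no adjusted p for 13 of the 32 USP genes tested, USP19 among them, which was also below a mean of 20 counts.

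USP16 turned to -0.25 without USP16-201, by construction, and USP14 to 0.18 without USP14-202 and 0.06 without shSCR replicates 1 and 2. USP18 turned from -0.22 (SE 0.18) to 0.03 without shSCR replicates 1 and 2. Values near 0 also changed sign: USP39 (-0.06 to 0.02 without single libraries), USP32 (-0.05 to 0.13 without single libraries and -0.06 without shSCR replicates 1 and 2) and USP7 (-0.17 to 0.10 without single libraries, -0.12 without shSCR replicates 1 and 2, -0.00149 at a mean of 20 counts and -0.000451 with limma-trend). None of the USP18, USP39, USP32 and USP7 values was called, and the cause was not tested. PTBP1 was lower throughout (-2.51 to -2.09 without single libraries).

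Replicate numbers did not pair the libraries, since deviations of same-numbered libraries correlated at -0.035 to 0.00917. With the replicate block, 137 genes were higher and 186 lower, 50 isoforms were called, 3 of them from USP genes, and USP16 had a log2 fold change of 0.57. No other USP gene or isoform call changed under the block.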
